A study of Homo sapiens with 18 samples.

Results

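The genes described here are 8 genes of the RNA polymerase I (RNAP1) machinery, chosen by symbol and function: the polymerase subunits POLR1A, POLR1B, POLR1C and POLR1E, the ribosomal DNA (rDNA) transcription factors UBTF, RRN3 and TAF1C, and the nucleolar cofactor TCOF1. They are 8 of the 16715 genes in either of the 2 expression tables (15358 genes in MCF10A and 15257 in hTERT RPE-1), and all 8 were present and passed the filter on low values in both lines. The question was how their mRNA levels moved when cells received either of 2 microRNA mimics that the study had selected as repressors of ribosome biogenesis. Levels were measured by polyA+ RNA sequencing in MCF10A, a non-tumorigenic human breast epithelial line, and hTERT RPE-1, a human retinal pigment epithelial line immortalized with telomerase. Each line received the hsa-miR-28-5p mimic (miR-28), the hsa-miR-708-5p mimic (miR-708), which the study places in the same microRNA family, or a non-targeting siRNA (siNT), at 30 nM for 72 h. There were 3 libraries per group, numbered 7 to 9 in MCF10A and 1 to 3 in hTERT RPE-1, and the study describes them as biological triplicates. A mimic is a transfected synthetic duplex and the siNT libraries are transfected as well, so no untreated cells are part of the comparison.

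RNAP1 transcribes the rDNA repeats in the nucleolus into the long precursor of the 18S, 5.8S and 28S ribosomal RNAs. UBTF (UBF) binds across the active repeats and keeps them open, the SL1 complex, of which TAF1C is a subunit, marks the promoter, and RRN3 (TIF-IA) bridges SL1 to the polymerase, which makes it a known control point for growth signals. POLR1A and POLR1B form the catalytic center, POLR1C is an assembly subunit that RNAP1 shares with RNA polymerase III (RNAP3), POLR1E belongs to the subcomplex that resembles a built-in initiation factor, and TCOF1 (treacle) is a nucleolar phosphoprotein that works with UBTF and RNAP1. Mutations in TCOF1, POLR1B, POLR1C and POLR1D are known causes of Treacher Collins syndrome.

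In hg38 with the GENCODE 44 annotation, POLR1A lies on the minus strand at chr2:86020216-86106155, POLR1B on the plus strand at chr2:112541915-112579818, POLR1C on the plus strand at chr6:43509702-43562419 and POLR1E on the plus strand at chr9:37485948-37503697. UBTF is on the minus strand at chr17:44205033-44221626, RRN3 on the minus strand at chr16:15060033-15094311, TAF1C on the minus strand at chr16:84177847-84187070 and TCOF1 on the plus strand at chr5:150357629-150400308. Exons of 4 of them overlap exons of a gene on the other strand, by 442 bases for TAF1C (DNAAF1), 127 for POLR1C (a long noncoding RNA), 101 for POLR1B (a Y RNA) and 37 for UBTF (ATXN7L3-AS1). The strand setting of the counting is not given in the sources used here, so reads in those stretches cannot be assigned to one gene with certainty. RRN3 also has pseudogene copies: RRN3P3 was listed at 86.7 to 164 in MCF10A and 54.7 to 102 in hTERT RPE-1, and RRN3 values may carry some reads of such copies.

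The sequence of the transfected miR-708 mimic and its matches in the 3′ UTRs of the 8 genes are shown because a microRNA pairs with its targets mainly through its seed. The mature sequence is from RefSeq (GRCh38.p14, chr11:79402077-79402099, minus strand), with the seed, bases 2 to 8, in capitals. The study reports the same seed for miR-28, so the seed matches below hold for both mimics. The 3′ UTR of the canonical transcript of each gene was searched on the transcript strand for GCTCCT, which pairs with bases 2 to 7, for AGCTCCT, which also pairs with base 8, and for GCTCCTA, which adds an A across from base 1. The shorter motif lies within both longer ones. In the sites the matching letters are in capitals:
hsa-miR-708-5p: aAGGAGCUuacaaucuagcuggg
UBTF: tgtgctgggAGCTCCTAacttacaca
POLR1A: cccaaggcctGCTCCTtccggctgct
RRN3: atctagaactGCTCCTtggtggccat
TAF1C: aggagtgctgGCTCCTcgtgtttggt

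UBTF carried both 7-letter matches at once in its last exon, which is exon 21 of 21. The 6 letters that they share lie at chr17:44206028-44206033. The other 3 sites were limited to the 6 letters, at chr2:86026916-86026921 in POLR1A (exon 34), chr16:15060897-15060902 in RRN3 (exon 18) and chr16:84178559-84178564 in TAF1C (exon 15), each in the last exon. Thus 4 of the 8 genes had a 6-letter match and 1 had a match of 7 or more letters, against 35.7% and 18.7% of all tested MCF10A genes with an annotated 3′ UTR. POLR1B, POLR1C, POLR1E and TCOF1 had no match in the 3′ UTR. Their 3′ UTRs span from 213 bases in POLR1C to 4089 in POLR1B, and UBTF has 2202. Before the 3′ UTR, the 6 letters occurred at 4 places in TAF1C and 2 in TCOF1. They occurred there at 1 place each in POLR1A, POLR1C, UBTF and RRN3, and at 0 in POLR1B and POLR1E. The share of all genes with such a match was not taken. A match is a description of the sequence and whether any of these sites is used was not tested.

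The breast markers separated the 2 lines more clearly than those of the retinal line. All 8 breast basal epithelium markers were listed in MCF10A, and 6 of these, including KRT5, KRT14 and CDH1, were not listed in hTERT RPE-1, where all 6 markers of the retinal line were listed. In MCF10A 5 of those 6 were listed too, all but OTX2, at a sum of 20640 to 24725 in siNT. The 4 markers of differentiated pigment epithelium were mixed. RLBP1 was listed only in hTERT RPE-1, where it and BEST1 summed to 155 to 186 in siNT libraries. TYR was listed in neither line. RPE65 was not listed in hTERT RPE-1 but was at 10.04 to 23.9 in MCF10A siNT libraries. BEST1 was at 591 to 932 in MCF10A against 153 to 182 in hTERT RPE-1, in tables normalized separately. Some markers moved with the mimics. The summed basal markers of MCF10A were at 167576 to 182404 in siNT, 109874 to 120985 with miR-28 and 85358 to 108076 with miR-708. Much of that fall lay in KRT5 (mean 84082 in siNT, 61054 with miR-28) and KRT14 (35973 and 10942.5), while CDH1 and EPCAM overlapped siNT with both mimics. In hTERT RPE-1 the summed markers of the retinal line were at 175560 to 204283, 154736 to 162810 and 126830 to 144314 in the same order. VIM made up most of that sum. With miR-28 the mean of CDH2 was 22971 against 23031 in siNT, while KRT8 was at 4921 against 14933. COL1A1, a collagen gene, was 22655 to 67366 in siNT, 5438 to 17209 with miR-28 and 1505 to 5120.3 with miR-708 in hTERT RPE-1. RPS28, the ribosomal protein gene that the study followed as a target of both mimics, served as a check of the treatment and changed by -2.79 and -2.65 on the log2 scale in MCF10A and by -4.47 and -4.397 in hTERT RPE-1 with miR-28 and miR-708. Depth, as read from the step between low values, was 19.4 to 31.7 M reads per library in MCF10A and 23.8 to 40.3 M in hTERT RPE-1, so 3 reads amount to at most 4.41 normalized reads, far under every value of the 8 genes. One library in each line stood apart in the rows of the 45S ribosomal RNA precursor, which polyA selection should remove. Those rows summed to 35838 in MCF10A miR-28 replicate 7 against 1508 to 3977 in the other libraries, though all ribosomal RNA rows held 3.98% of that library, within the 1.71% to 4.39% of the others. They summed to 32754 in hTERT RPE-1 miR-28 replicate 1 against 4198 to 8748, where all ribosomal RNA rows held 15.1% of the library against 4.23% to 7.20% in the others. The values without these 2 libraries are given beside the results they change most.

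Before any mimic, the genes differed widely in level. Per 1000 bases of the longest annotated transcript, the normalized read count in MCF10A siNT libraries ran from 876 ± 126 (SD, n = 3) for TCOF1 through RRN3 (727 ± 23.7), POLR1E (704 ± 23.6), UBTF (655 ± 25.5), POLR1B (501 ± 9.80), POLR1C (372 ± 35.0) and POLR1A (343.3 ± 28.2) to 65.0 ± 11.9 for TAF1C. The neighbors RRN3 and POLR1E, POLR1E and UBTF, and POLR1C and POLR1A overlapped in their libraries, while the other neighbors in that order did not. In hTERT RPE-1 siNT libraries the order was UBTF (663 ± 65.7), RRN3 (395 ± 16.5), TCOF1 (281 ± 30.2), POLR1A (257 ± 19.8), POLR1E (243 ± 22.8), POLR1C (136 ± 18.9), POLR1B (110.3 ± 10.95) and TAF1C (98.4 ± 14.1). Here UBTF and RRN3 stood clear of their neighbors, the 3 genes from TCOF1 to POLR1E overlapped one after the other, and so did the 3 from POLR1C to TAF1C. The tables of the 2 lines were normalized separately, so these levels were ordered only within a line.

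**Figure D1:**
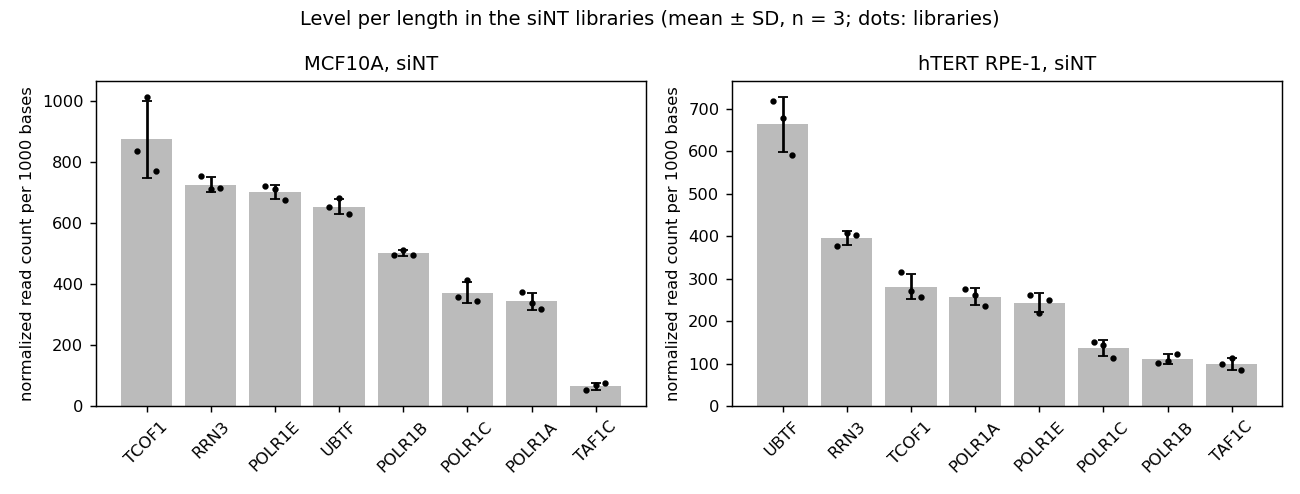
Level of the 8 genes in the siNT libraries of each line, as normalized read count per 1000 bases of the longest transcript (bars: mean, error bars: SD, n = 3, dots: libraries). TCOF1 was highest in MCF10A (876) and UBTF in hTERT RPE-1 (663), and TAF1C was lowest in both.

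The clearest changes were in the subunits POLR1B and POLR1C, which rose in hTERT RPE-1 with both mimics. POLR1B, the second-largest subunit, which completes the active site with POLR1A, was at 765, 804 and 923 normalized reads in the siNT libraries, at 1339, 1289 and 1365 with miR-28, and at 1679.9, 1407 and 1711 with miR-708. All 6 mimic libraries lay above all siNT libraries, and the miR-708 libraries lay above the miR-28 libraries. The log2 fold change was 0.68 (SE 0.10, limma adjusted p = 0.000424) with miR-28 and 0.94 (SE 0.10, adjusted p = 2.3e-05) with miR-708, or 1.60 and 1.93 times the siNT mean. POLR1C, the assembly subunit shared with RNAP3, was at 366.05, 349 and 279 in siNT, at 707, 678 and 631 with miR-28, and at 886, 818 and 768 with miR-708. Its groups did not overlap either, and its log2 fold changes of 1.03 (SE 0.12, adjusted p = 8.28e-05) and 1.32 (SE 0.12, adjusted p = 6.89e-06) were 2.03 and 2.49 times the siNT mean. An exact two-sided permutation test of 3 libraries against 3 gives at least p = 0.1, which is its value wherever 2 groups do not overlap, so the calls rest on the model fitted across all genes.

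POLR1B and POLR1C were the 2 of the 8 genes called higher with miR-28 in hTERT RPE-1, and none was called lower, where 23.3% of all tested genes were called higher and 23.5% lower. With miR-708, 3 genes were called higher (POLR1B, POLR1C and TCOF1) and 1 lower (UBTF), where 30.9% of tested genes were called higher and 31.2% lower. Both subunits kept their calls against siNT under every alternative tried and without any 1 library, and without miR-28 replicate 1, the library high in ribosomal RNA, the miR-28 changes were 0.68 (adjusted p = 0.000961) and 0.99 (adjusted p = 0.000199). COL1A1 and the summed retinal markers were lower in the same libraries, and their part in these changes was not tested.

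**Figure D2:**
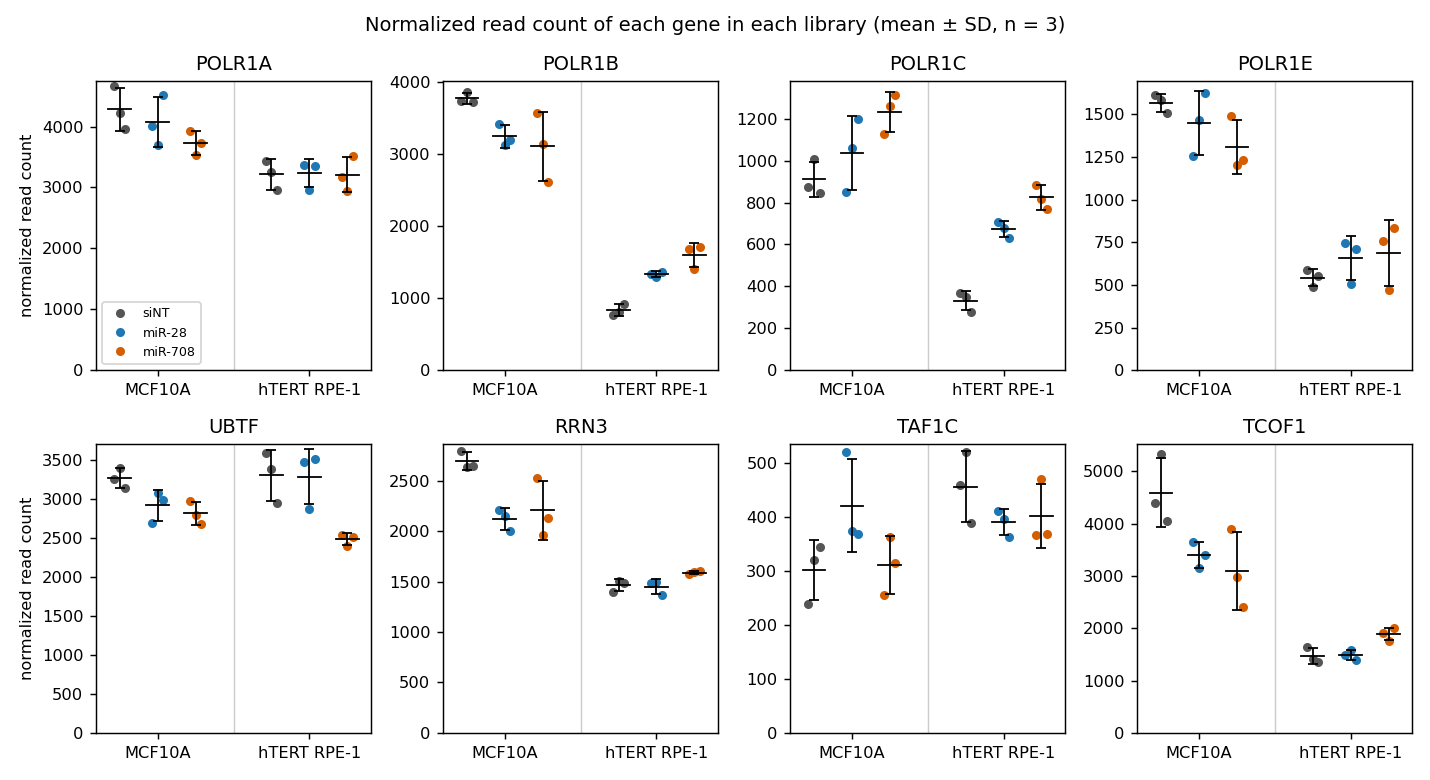
Normalized read count of each of the 8 genes in each library (dots), with the mean and SD of each group of 3 libraries as bars; each vertical axis starts at 0. POLR1B and POLR1C step up from siNT to both mimics in hTERT RPE-1 without overlap, UBTF drops there with miR-708, and RRN3 is lower with both mimics in MCF10A.

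In MCF10A the same pair of subunits behaved differently. POLR1B was at 3731, 3855 and 3723 in siNT, at 3418, 3121 and 3187 with miR-28, and at 3565, 3133 and 2617 with miR-708. Every mimic library was below every siNT library, but the differences of -0.22 (SE 0.11, adjusted p = 0.173) and -0.29 (SE 0.11, adjusted p = 0.0623) did not pass the threshold. The miR-708 difference passed with the replicate number as a block (adjusted p = 0.0352) and without miR-708 replicate 7 (-0.40, adjusted p = 0.0104). POLR1C was at 876, 1007 and 846 in siNT, at 849, 1059 and 1199 with miR-28, and at 1127, 1259.5 and 1311 with miR-708. The miR-28 libraries overlapped siNT (0.18, SE 0.13, adjusted p = 0.365, and 0.31, adjusted p = 0.0893, without replicate 7, the library high in 45S rows), while all 3 miR-708 libraries were above siNT, with a rise of 0.44 (SE 0.13, adjusted p = 0.0265). That call was lost without siNT replicate 7 or 9 or miR-708 replicate 8 or 9, where the adjusted p was 0.0741 to 0.0936.

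The subunits POLR1A and POLR1E were not called in any comparison. POLR1A, the largest subunit, ranged from 3965 to 4661 in siNT, 3693 to 4511 with miR-28 and 3533 to 3925 with miR-708 in MCF10A, and the 3 groups of hTERT RPE-1 all lay between 2949.7 and 3518. Its log2 fold changes in hTERT RPE-1 were 0.01 (95% CI -0.20 to 0.22) with miR-28 and 0.00 (95% CI -0.21 to 0.21) with miR-708. POLR1E was at 584, 485 and 555 in siNT, at 748, 508 and 708.3 with miR-28, and at 759, 469 and 830.5 with miR-708 in hTERT RPE-1. Replicate 2 was the low library in each of the 3 groups, and the changes of 0.26 (SE 0.21, adjusted p = 0.342) and 0.30 (SE 0.21, adjusted p = 0.236) came with the widest error of the 8 genes there. Without miR-28 replicate 1, the library high in ribosomal RNA, the first was 0.15 (adjusted p = 0.608). Without miR-708 replicate 2 the second was 0.56 and passed (adjusted p = 0.0195), but the low siNT replicate 2 stayed in that fit. With the replicate number as a block in limma neither change passed (adjusted p = 0.119 and 0.0604). POLR1E in MCF10A was 1509 to 1610.1 in siNT, 1255 to 1626 with miR-28 and 1203 to 1490.2 with miR-708, a difference of -0.27 with miR-708 (SE 0.12, adjusted p = 0.104) that passed without miR-708 replicate 7 (adjusted p = 0.0305).

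Among the initiation factors, UBTF fell with 1 of the mimics in hTERT RPE-1. It was at 3592, 3393 and 2951 in siNT, at 3485, 2879 and 3516 with miR-28, and at 2543, 2405 and 2520.3 with miR-708. The miR-28 libraries covered nearly the same range as siNT, and the miR-708 libraries lay below all of the others. The change was -0.01 (SE 0.10, adjusted p = 0.949) with miR-28 and -0.41 (SE 0.10, adjusted p = 0.00543) with miR-708, and the miR-708 call was kept when any 1 library was left out. The direct comparison of miR-708 with miR-28 gave -0.40 (SE 0.10, adjusted p = 0.0209). That second call was lost without any of the 3 miR-708 libraries or without miR-28 replicate 1 or 3 (adjusted p 0.0538 to 0.0822), replicate 1 being the library high in ribosomal RNA. Both calls also depended on the scaling: with libraries scaled to equal sums, the change against siNT was -0.09 (adjusted p = 0.470) and that against miR-28 was -0.16 (adjusted p = 0.237). UBTF is the gene whose 3′ UTR holds the longest seed match, tgtgctgggAGCTCCTAacttacaca. Both mimics have that seed, so the site matches miR-28 as well, and its part in the fall with miR-708 was not tested. In MCF10A UBTF was 3152 to 3406 in siNT, 2695 to 3079 with miR-28 and 2685 to 2977 with miR-708. It lay below siNT in all 6 mimic libraries, with differences of -0.16 (adjusted p = 0.203) and -0.22 (adjusted p = 0.0823) that did not pass. The first was -0.11 (adjusted p = 0.438) without miR-28 replicate 7, and the second passed without miR-708 replicate 7 (adjusted p = 0.0493).

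RRN3, the factor that brings the polymerase to the promoter, fell in MCF10A with both mimics. The siNT libraries were at 2796, 2639.7 and 2648, the miR-28 libraries at 2207, 2155 and 2001, and the miR-708 libraries at 2532, 1961 and 2126. No mimic library reached the siNT range. The changes were -0.35 (SE 0.10, adjusted p = 0.0339) with miR-28 and -0.30 (SE 0.10, adjusted p = 0.0466) with miR-708, to 78.7% and 81.9% of the siNT mean. Both calls were close to the threshold. The first was lost without any 1 of the siNT libraries or without miR-28 replicate 8 or 9 (adjusted p 0.0719 to 0.103) but held without miR-28 replicate 7, the library high in 45S rows (-0.38, adjusted p = 0.0420). The second was lost without any library other than miR-28 replicate 7 or miR-708 replicate 7 (adjusted p 0.0553 to 0.178). Scaled to equal sums, the changes were -0.23 (adjusted p = 0.0980) and -0.15 (adjusted p = 0.240). Both calls were also lost with equal upper quartiles and without a trend, and the miR-708 call in a fit of only the 2 groups compared. In hTERT RPE-1, RRN3 was 1395 to 1509 in siNT, 1363 to 1500.2 with miR-28 and 1577 to 1602 with miR-708. The miR-708 libraries lay just above siNT, with a difference of 0.12 (SE 0.08, adjusted p = 0.200) that did not pass.

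TAF1C, the SL1 subunit, had the lowest level per length in siNT and was called in no comparison between groups of a line. In MCF10A it was at 239, 320.3 and 345 in siNT, at 520.2, 374 and 369.6 with miR-28, and at 255, 363 and 314 with miR-708. The miR-28 libraries were above all siNT libraries, and the highest, replicate 7, is the one high in 45S rows. The difference with miR-28 was 0.48 (SE 0.20, adjusted p = 0.0998), or 0.32 (adjusted p = 0.274) without that library. In hTERT RPE-1 it was 389 to 519.9 in siNT, 363 to 411 with miR-28 and 366.4 to 469.9 with miR-708, overlapping throughout, with differences of -0.22 (SE 0.14, adjusted p = 0.232) and -0.18 (SE 0.14, adjusted p = 0.279).

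TCOF1, the treacle gene, moved in opposite directions in the 2 lines with miR-708. In MCF10A it was at 4393, 5324 and 4049.6 in siNT, at 3641, 3144 and 3402 with miR-28, and at 3890.0, 2978 and 2406 with miR-708. The mimic libraries were all below siNT, and the fall with miR-708 was 0.59 on the log2 scale (log2 fold change -0.59, SE 0.16, adjusted p = 0.0162), to 67.4% of the siNT mean. This call was lost without siNT replicate 8 or miR-708 replicate 8 or 9 (adjusted p 0.0509 to 0.0689). The difference with miR-28 was -0.43 (SE 0.16, adjusted p = 0.0766), and with the replicate block it passed (adjusted p = 0.0275). In hTERT RPE-1 it was at 1651, 1419.8 and 1347 in siNT, at 1481, 1592 and 1396 with miR-28, and at 1906, 1765 and 2004 with miR-708. The miR-28 libraries overlapped siNT (0.02, SE 0.10, adjusted p = 0.885) and the miR-708 libraries were above both, with a rise of 0.36 (SE 0.10, adjusted p = 0.00801) that held without any 1 library. Against miR-28 directly, TCOF1 was higher with miR-708 by 0.34 (SE 0.10, adjusted p = 0.0315), a call lost without replicate 1 or 3 of either mimic (adjusted p 0.0691 to 0.121).

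Counted over the 8 genes in MCF10A, 1 was called lower and none higher with miR-28. Of all tested genes, 12% were called lower and 10.7% higher. An unadjusted limma p under 0.05 was reached by 3 of the 8, beside 5451 of all 14726 tested genes. With miR-708 2 genes were called lower and 1 higher, where 17.3% of tested genes were lower and 15.5% higher. The unadjusted p was under 0.05 for 6 of the 8, beside 6473 of the 14726 tested genes. The median log2 fold change of the 8 was -0.14 with miR-28 and -0.24 with miR-708 in MCF10A, and the hTERT RPE-1 medians were 0.01 and 0.21, beside medians of all tested genes between -0.01 and 0.01 in the 4 comparisons. With so few genes these counts and medians are a description. The summed basal markers of MCF10A were lower in the same mimic libraries, and their part in these results was not tested. The same holds for the mRNA levels as a whole: in bulk samples, fewer cells of a type and less RNA per cell cannot be told apart.

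**Figure D3:**
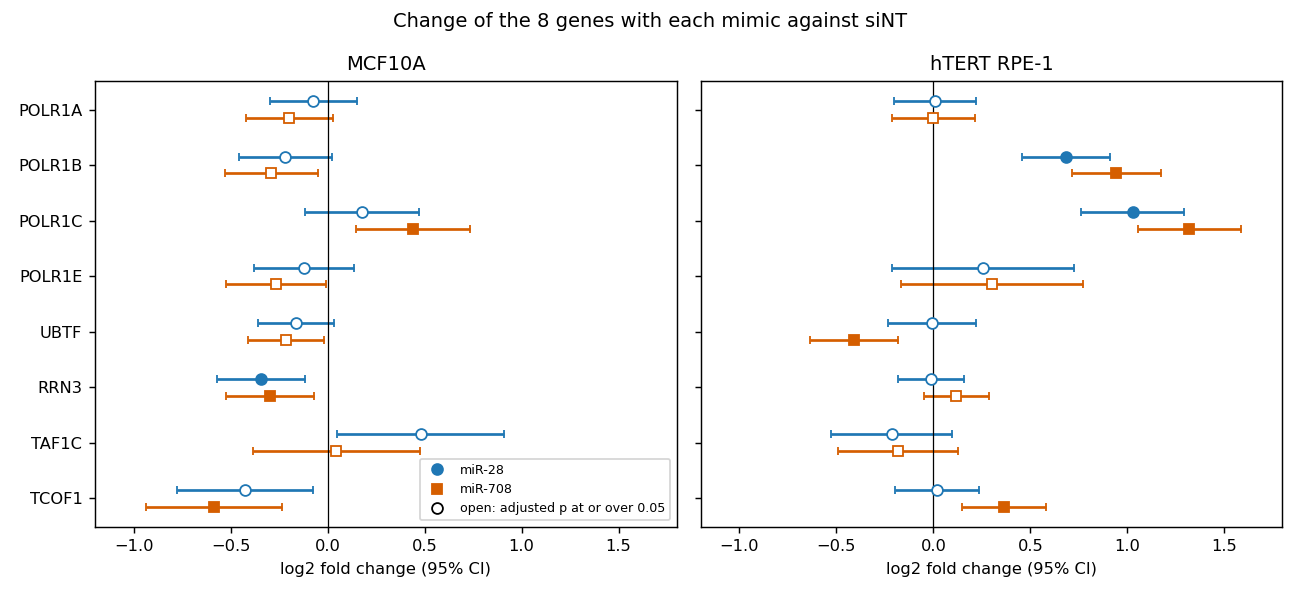
Log2 fold change of each gene with miR-28 (circles) and miR-708 (squares) against siNT in each line, with 95% confidence intervals; filled symbols have an adjusted p under 0.05. In MCF10A most genes lie left of 0, with POLR1C (0.18 and 0.44) and TAF1C (0.48 and 0.04) to the right, and in hTERT RPE-1 POLR1B and POLR1C lie far to the right (0.68 to 1.32).

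Between the 2 mimics, none of the 8 genes was called in MCF10A, where 1.55% of tested genes were called by limma. The unadjusted p was under 0.05 for 1 of the 8, beside 2320 of the 14726 tested genes. This was TAF1C (-0.43, SE 0.20, adjusted p = 0.315, and -0.27 without miR-28 replicate 7). In hTERT RPE-1, 2 of the 8 were called (UBTF and TCOF1), where 21.2% of tested genes were called. POLR1B and POLR1C were higher with miR-708 than with miR-28 in all libraries of hTERT RPE-1, by 0.26 (95% CI 0.03 to 0.49, adjusted p = 0.100) and 0.29 (95% CI 0.03 to 0.56, adjusted p = 0.108), which did not pass. They passed with libraries scaled to equal sums (0.49, adjusted p = 0.00730, and 0.53, adjusted p = 0.00860), and POLR1B also passed without miR-708 replicate 2 (0.35, adjusted p = 0.0465) and POLR1C without siNT replicate 3 (0.29, adjusted p = 0.0489). A difference that does not pass here does not show that the mimics act alike.

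The response of 5 of the 8 genes differed between the lines by a test of the difference itself, taken as the log2 fold change in hTERT RPE-1 minus that in MCF10A. POLR1B differed by 0.90 with miR-28 (SE 0.15, adjusted p = 0.000275) and by 1.23 with miR-708 (SE 0.15, adjusted p = 2.28e-06). POLR1C differed by 0.85 (SE 0.18, adjusted p = 0.00193) and 0.88 (SE 0.18, adjusted p = 0.000539). For both subunits all alternatives and all single-library omissions kept these calls. With miR-708, TCOF1 differed by 0.95 (SE 0.19, adjusted p = 0.000571) and RRN3 by 0.41 (SE 0.13, adjusted p = 0.0144), the latter lost without MCF10A miR-708 replicate 8 (adjusted p = 0.0573). TAF1C differed by -0.69 with miR-28 (SE 0.24, adjusted p = 0.0423), lost without 8 of the 18 libraries: siNT and miR-28 replicates 7 and 8 of MCF10A, and siNT replicates 1 and 2 and miR-28 replicates 2 and 3 of hTERT RPE-1 (adjusted p 0.0507 to 0.133). Without MCF10A miR-28 replicate 7 it was -0.53. The call was also lost without a trend and with equal sums of the libraries without ribosomal RNA rows. Thus 2 genes were called higher and 1 lower in hTERT RPE-1 relative to MCF10A with miR-28, where 12.1% and 11.3% of the genes in both tables were, and 4 higher and none lower with miR-708, where 20.2% and 19.6% were. The lines carry their own replicate numbers, and whether they were handled together is not stated in the sources used here. Line and any difference in handling therefore cannot be told apart.

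**Figure D4:**
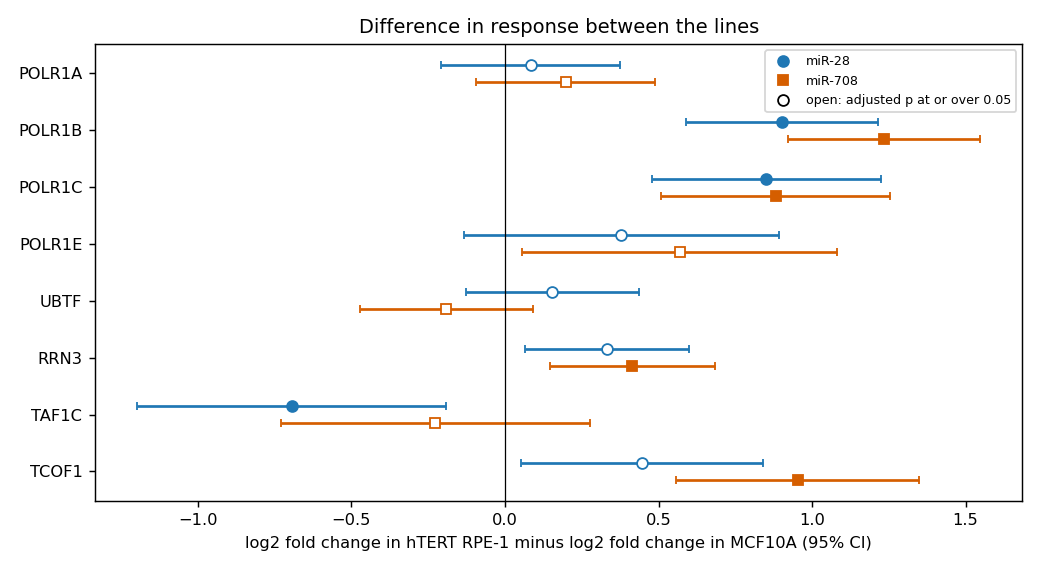
Difference between the lines in the log2 fold change against siNT (hTERT RPE-1 minus MCF10A), with 95% confidence intervals, for miR-28 (circles) and miR-708 (squares); filled symbols have an adjusted p under 0.05. POLR1B (0.90 and 1.23) and POLR1C (0.85 and 0.88) lie well right of 0 with both mimics, and TAF1C with miR-28 lies left (-0.69).

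Part of these calls depended on how the libraries were scaled. Rescaling to equal library sums moved the median log2 fold change of all tested genes to 0.12 and 0.14 in MCF10A and to 0.09 and 0.32 in hTERT RPE-1, with miR-28 and miR-708 respectively. The share of calls that were higher went with it, from 47.1% to 66.2% and from 47.3% to 67.6% in MCF10A, and from 49.7% to 71.9% with miR-708 in hTERT RPE-1. For miR-708 against miR-28 in hTERT RPE-1 that share went from 46.5% to 84.8%, and for the difference between lines with miR-708 from 50.8% to 68.5%. Under that scaling POLR1A, at 0.00 with miR-708 in hTERT RPE-1, was 0.32 (adjusted p = 0.0130), and POLR1E (0.62, adjusted p = 0.0197) and RRN3 (0.44, adjusted p = 0.000675) also passed, which is about the shift of all genes for POLR1A. POLR1B (1.26) and POLR1C (1.64) stayed well above that shift. In MCF10A, POLR1C (0.58, adjusted p = 0.00712) and TCOF1 (-0.44, adjusted p = 0.0400) with miR-708 kept their direction and call.

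The remaining 4 genes with POLR1 symbols were split as well. POLR1D, the partner of POLR1C in the assembly platform and likewise shared with RNAP3, was 5163 to 5874 in MCF10A siNT libraries, 3261 to 3657 with miR-28 and 3369.9 to 3624 with miR-708. It fell there by 0.67 (SE 0.09, adjusted p = 0.000756) and 0.66 (SE 0.09, adjusted p = 0.000343) on the log2 scale with miR-28 and miR-708. In hTERT RPE-1 it fell by 0.39 (SE 0.08, adjusted p = 0.00346) and 0.42 (SE 0.08, adjusted p = 0.00131), so that in this line the 2 partner subunits moved in opposite directions. They did so with miR-708 in MCF10A as well, where POLR1C rose by 0.44 (adjusted p = 0.0265), a call lost without single libraries. The POLR1D fall there passed under equal sums (-0.51, adjusted p = 0.00147). POLR1H (ZNRD1), the small subunit with a role in RNA cleavage, fell by 0.92 and 0.82 in MCF10A (adjusted p = 0.00307 and 0.00288) and by 0.56 and 0.52 in hTERT RPE-1 (adjusted p = 0.0229 and 0.0243). For both genes the fall with miR-708 in hTERT RPE-1 did not pass under equal sums (-0.10, adjusted p = 0.337 for POLR1D, and -0.21, adjusted p = 0.336 for POLR1H). POLR1F (TWISTNB), a stalk subunit, rose in hTERT RPE-1 by 0.47 (SE 0.09, adjusted p = 0.00159) and 0.72 (SE 0.09, adjusted p = 4.99e-05), while its differences in MCF10A were -0.05 (adjusted p = 0.777) and -0.22 (adjusted p = 0.123). POLR1G (CD3EAP), which pairs with POLR1E, rose by 0.45 (SE 0.16, adjusted p = 0.0410) with miR-28 in hTERT RPE-1 and was 0.36 (adjusted p = 0.0749) with miR-708.

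Of the 5 subunits shared by all 3 nuclear polymerases, POLR2E was called lower with both mimics in both lines, by 0.34 and 0.51 in MCF10A and by 1.08 and 1.37 in hTERT RPE-1 on the log2 scale with miR-28 and miR-708, though the MCF10A call with miR-28 was lost under equal sums (adjusted p = 0.124). POLR2K was called higher with both in hTERT RPE-1 (0.41 and 0.59). With the mimics in the order miR-28 and miR-708, these subunits counted 1 and 2 lower and 0 and 1 higher in MCF10A, and 1 and 2 lower and 1 and 1 higher in hTERT RPE-1. Of all tested genes, 12% and 17.3% were lower and 10.7% and 15.5% higher in MCF10A. In hTERT RPE-1, 23.5% and 31.2% were lower and 23.3% and 30.9% higher.

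Among 8 other initiation, termination and nucleolar cofactors, TAF1A, another SL1 subunit, rose in hTERT RPE-1 by 0.76 (SE 0.17, adjusted p = 0.00461) with miR-28 and 1.55 (SE 0.17, adjusted p = 2.49e-05) with miR-708. CAVIN1 (PTRF), known both for releasing RNAP1 transcripts and for forming caveolae at the cell surface, fell there by 1.08 and 2.06 on the log2 scale (adjusted p = 7.01e-05 and 4.58e-07). NOLC1, a nucleolar partner of treacle, fell in MCF10A by 0.60 and 0.75 (adjusted p = 0.00785 and 0.00132) and was called lower in hTERT RPE-1 at -0.32 with each mimic, a call lost under equal sums (adjusted p = 0.139 and 0.984). TAF1D, also in SL1, was lower in MCF10A (-0.34 and -0.42, adjusted p = 0.0310 and 0.00774), also lost under equal sums (adjusted p = 0.124 and 0.0528). The list counted 2 lower and 0 higher with miR-28 and 3 lower and 0 higher with miR-708 in MCF10A, and 1 higher and 2 lower, then 3 higher and 2 lower, in hTERT RPE-1. Among all tested genes in MCF10A, 12% and 17.3% were called lower and 10.7% and 15.5% higher with miR-28 and miR-708. The hTERT RPE-1 shares were 23.5% and 31.2% lower and 23.3% and 30.9% higher.

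The 6 transcription UTP proteins, early assembly factors that also act in pre-rRNA transcription, were called higher or not called in hTERT RPE-1 and lower or not called in MCF10A. In hTERT RPE-1, 2 were called higher with miR-28 and 5 with miR-708, none lower, where 23.3% and 30.9% of all tested genes were called higher, at list medians of 0.20 and 0.42, led by WDR75 (0.31 and 0.71) and WDR43 (0.47 and 0.50). In MCF10A, HEATR1 (-0.43 and -0.46, adjusted p = 0.00595 and 0.00239) and NOL11 (-0.34 and -0.30, adjusted p = 0.0333 and 0.0397) were called lower with both mimics and the other 4 were not called, where 12% and 17.3% of all tested genes were lower. HEATR1 was at -0.04 and -0.02 in hTERT RPE-1. The response was called higher in hTERT RPE-1 than in MCF10A for 3 of the 6 with miR-28 and 5 with miR-708, beside 12.1% and 20.2% of all genes in both tables. The NOL11 calls were lost under equal sums (adjusted p = 0.110 and 0.230).

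Of 10 rDNA chromatin regulators, ERCC6 (CSB), a remodeler with roles in RNAP1 transcription and transcription-coupled repair, rose in MCF10A by 0.77 and 0.61 (adjusted p = 0.00102 and 0.00165) and fell in hTERT RPE-1 by 0.47 and 0.99 on the log2 scale (adjusted p = 0.00836 and 4.59e-05). The difference between the lines was -1.24 and -1.60 (adjusted p = 2.24e-05 and 3.02e-07). KDM2A, a demethylase that represses rDNA, was lower with both mimics in both lines (-0.35 and -0.47, then -0.91 and -1.11), the first of these not called under equal sums (adjusted p = 0.114). SIRT7, a deacetylase that binds RNAP1, was higher in MCF10A (0.55 and 0.59), while SMARCA5 (0.52 and 0.73), the remodeler of the rDNA silencing complex, and PHF8 (0.34 and 0.40), a histone demethylase, were higher in hTERT RPE-1. The list counted 2 higher and 1 lower with each mimic in MCF10A, 3 higher and 2 lower with miR-28 and 3 higher and 3 lower with miR-708 in hTERT RPE-1. Among all tested genes in MCF10A, 10.7% and 15.5% were called higher and 12% and 17.3% lower with miR-28 and miR-708. The hTERT RPE-1 shares were 23.3% and 30.9% higher and 23.5% and 31.2% lower.

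**Figure D5:**
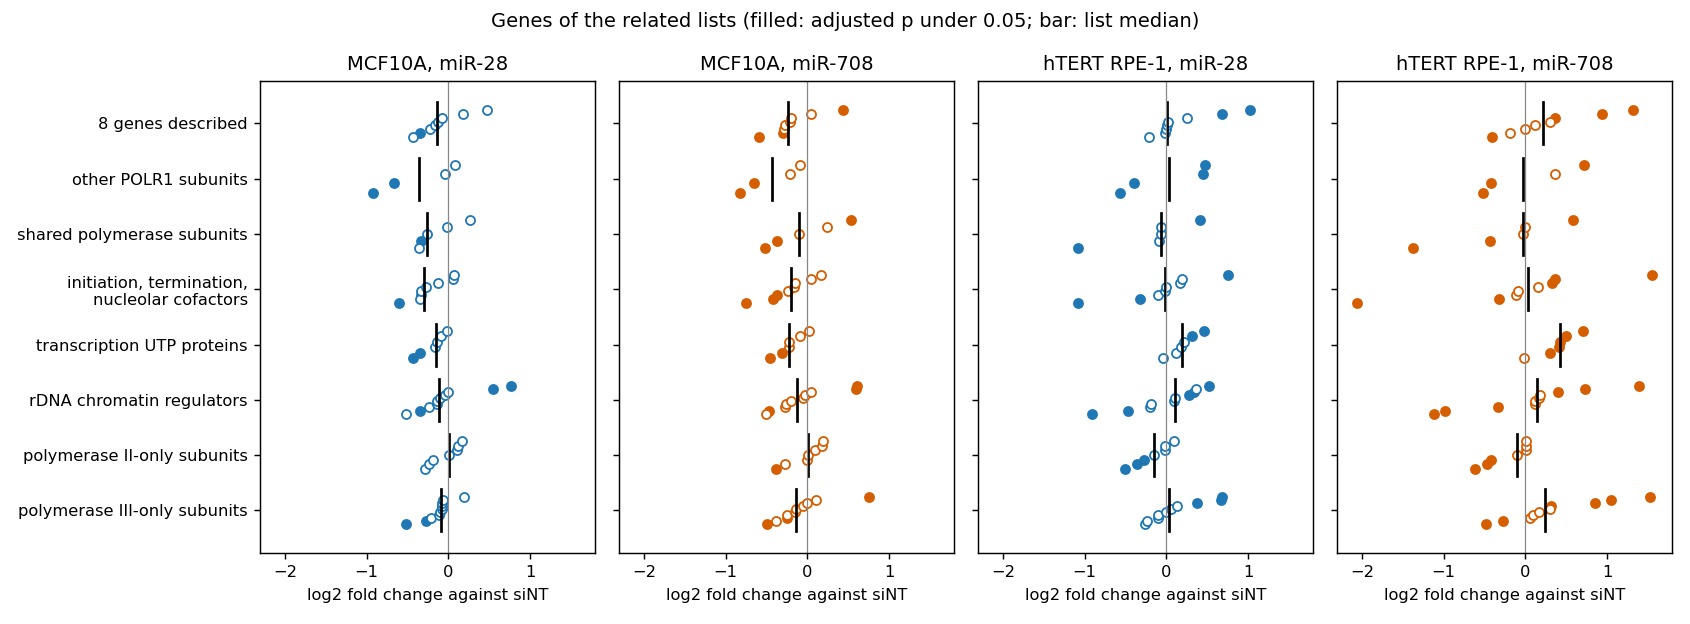
Log2 fold change against siNT of the genes reported from the related lists (dots; filled where the adjusted p is under 0.05), with the list median as a bar, for each mimic and line. In hTERT RPE-1 with miR-708 the 8 genes described have a median of 0.21 and the transcription UTP proteins 0.42, and the polymerase II-only subunits lie at -0.11.

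The other 2 nuclear polymerases were counted in the same way. Of all tested genes in hTERT RPE-1, 23.3% were called higher and 23.5% lower with miR-28, and 30.9% and 31.2% with miR-708. In MCF10A these shares were 10.7% and 12%, then 15.5% and 17.3%. With so few subunits the counts below are a description and do not set the 2 polymerases apart. Of 7 subunits found only in RNA polymerase II, none was called higher in any of the 4 comparisons with siNT, while in hTERT RPE-1 3 were called lower with each mimic (0 and 1 in MCF10A), with POLR2I (-0.51 and -0.61) and POLR2G (-0.36 and -0.47) lower with both mimics. Those 2 were not called under equal sums (adjusted p 0.0844 to 0.303). Of 10 subunits found only in RNAP3 that were examined, 3 were called higher and 0 lower with miR-28 in hTERT RPE-1. At an unadjusted limma p under 0.05, 2 were lower there, beside 7851 of all 14527 tested genes in either direction. With miR-708, 4 were called higher and 2 lower in hTERT RPE-1. POLR3G (0.67 and 1.52), POLR3K (0.68 and 1.05) and POLR3A (0.38 and 0.85) were higher with both. In MCF10A 0 were higher and 2 lower with miR-28, and 1 higher and 2 lower with miR-708, and POLR3B (-0.52 and -0.50) and POLR3A (-0.27 and -0.25) were lower with both. POLR3A, the catalytic subunit of RNAP3, thus differed between the lines by 0.65 and 1.10 (adjusted p = 0.00126 and 1.43e-06).

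Some of the calls in these lists did not hold when single libraries were left out, with the highest adjusted p reached in brackets. With both mimics these were POLR1H (0.0790 and 0.0869), NOLC1 (0.132 and 0.124) and POLR2I (0.153 and 0.0586) in hTERT RPE-1, and NOL11 (0.113 and 0.145), SIRT7 (0.116 and 0.0737), POLR3A (0.156 and 0.155) and POLR3B (0.0585 and 0.0636) in MCF10A. With miR-28 alone they were POLR1G (0.130), WDR75 (0.0924) and POLR2G (0.142) in hTERT RPE-1, and POLR2E (0.127), TAF1D (0.113) and KDM2A (0.151) in MCF10A. The MCF10A calls of POLR3A were also lost under equal sums (adjusted p = 0.196 and 0.330).

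The mean profile of the 8 genes over the 18 libraries, each taken on the log2 scale relative to the siNT mean of its line, was -0.09 ± 0.04 (SD, n = 3) with miR-28 and -0.17 ± 0.09 with miR-708 in MCF10A. In hTERT RPE-1 it was 0.22 ± 0.07 with miR-28 and 0.31 ± 0.08 with miR-708. There the mean mostly followed POLR1B (0.68 and 0.94) and POLR1C (1.03 and 1.32), and the medians of the 8 were 0.01 and 0.21. With miR-28 the other members lay between -0.22 (TAF1C) and 0.26 (POLR1E), so the mean does not show a shared rise. The 5 genes whose profile was most like it among 13331 other genes were ATG16L1 (Pearson r = 0.967), PIGU (0.966), THOC1 (0.961), DDX31 (0.958) and PDCD11 (0.957). Their fitted log2 fold changes were below 0 in MCF10A and above 0 in hTERT RPE-1 for both mimics, which follows from their choice by likeness to this profile. The libraries share their groups, scaling and lines, so these correlations are a description of likeness only.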

How the data were processed

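The deposited tables hold 1 value per gene and library for MCF10A and for hTERT RPE-1, 9 libraries each. Per the labels and the methods of the study, the authors aligned trimmed paired reads of polyA+ RNA to hg38 with HISAT2 2.1.0, estimated read counts per gene in Partek and scaled them with DESeq2. The deposited signal therefore already corrects estimated reads for depth by a size factor (named here a normalized read count) and is not a raw count. From 82.8% to 86.9% of the low values of a library were whole multiples (within 0.05) of what 1 read is worth, too few for a count model, so limma was used. Other deposited tables hold the authors' own fold changes and p-values and were not used.

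The members and gene lists were chosen with earlier results of these data known. Values were analyzed in R 4.3.3 with limma 3.58.1 as log2(value + 1), for genes that reached 10 in 3 or more of a line's 9 libraries (14726 in MCF10A, 14527 in hTERT RPE-1), with all 3 groups in 1 fit per line and an intensity trend. Fold changes are on that scale, which understates changes of low genes. P-values were adjusted by Benjamini-Hochberg over all genes tested, with calls under 0.05. The difference between lines was taken over the 13339 genes tested in both, from both estimates and their standard errors with Welch-Satterthwaite degrees of freedom. The code was tested on simulated data. Libraries were grouped by GEO's labels, no 2 were identical, and 0 value columns were left unmapped.

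All 8 members are named, as are the other POLR1 subunits (a list that includes POLR1D, shared with RNAP3). A gene of the RNAP3 list is not reported here. From each other list, the text names up to 3 genes called higher and up to 3 called lower with both mimics in a line, by the mean of both changes, and the 5 genes most like the members. Libraries with the same replicate number deviated together in MCF10A for miR-28 and siNT (r = 0.26, 0.18 and 0.11) and for miR-708 and siNT (r = 0.30, 0.11 and 0.16), and in hTERT RPE-1 for the 2 mimics (r = 0.28, 0.20 and 0.13), so a fit with the replicate block is quoted there where it changes a call. Transcript lengths, UTRs and positions are from GENCODE 44 on hg38. The alternatives were other pseudocounts (0.5 and 5), no filter, equal library sums or upper quartiles, no trend, the replicate block, 2-group fits, each library left out, and, added after seeing the data, equal sums without ribosomal RNA rows.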

Additional observations from a re-analysis of the deposited data

Results flagged for a closer look

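The response to a mimic differed between hTERT RPE-1 and MCF10A by a test of the difference itself for 7 gene and mimic pairs. It is given as the log2 fold change against siNT in hTERT RPE-1 minus that in MCF10A. Of the 13339 genes tested in both lines, 12.1% were called higher and 11.3% lower with miR-28. With miR-708 these shares were 20.2% and 19.6%. POLR1B differed by 0.90 with miR-28 and by 1.23 with miR-708, where all 6 mimic libraries of hTERT RPE-1 lay above siNT and all 6 of MCF10A below. POLR1C differed by 0.85 with miR-28 and 0.88 with miR-708, with fitted changes above 0 in both lines. TCOF1 differed by 0.95 with miR-708, being called lower in MCF10A and higher in hTERT RPE-1. RRN3 differed by 0.41 with miR-708 and TAF1C by -0.69 with miR-28. Leaving out single libraries, the RRN3 call was lost for 1 of the 18 and the TAF1C call for 8 of the 18. Each group has 3 libraries, so single libraries far from their group were not tested.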

How the results depend on the processing

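The count of genes called among the 8 was sensitive in MCF10A and for the direct comparison of the mimics. With miR-28 in MCF10A, 1 was called, 0 with equal library sums (with or without ribosomal RNA rows), equal upper quartiles or no trend, 2 with the replicate block or a fit of only the 2 groups, and 0 to 2 without 1 library. Of all tested genes 3347 of 14726 were called there, 3438 of 14751 with equal sums, 2666 without a trend and 4408 with the block. With miR-708 in MCF10A, 3 were called, 1 without a trend and 0 to 6 without 1 library (6 without miR-708 replicate 7, 0 without miR-708 replicate 8 or 9). The calls over all genes moved the same way, from 4835 of 14726 to 4337 without a trend. They were 5483 of 14676 without miR-708 replicate 7, and 3421 and 3174 of 14631 without replicates 8 and 9. For miR-708 against miR-28 in hTERT RPE-1, 2 were called, 4 with equal sums (with or without ribosomal RNA rows), 1 without a trend and 0 to 3 without 1 library (3 without siNT replicate 3). All tested genes had 3084 calls of 14527 there, 2567 without a trend and 3264 of 14443 without that siNT library. For the difference between lines with miR-28 the count was 3, and 2 to 5 without 1 library (2 without any of 7 libraries, 5 without MCF10A miR-708 replicate 7). For that difference 3127 of all 13339 genes were called, and 3456 of 13314 without MCF10A miR-708 replicate 7. Without a trend the calls lost were POLR1C with miR-708 and RRN3 with both mimics in MCF10A, TCOF1 between the mimics in hTERT RPE-1, and TAF1C in the difference between lines with miR-28. Genes with a seed match in the 3′ UTR went from 4 to 1 when 7 letters were required. The counts against siNT in hTERT RPE-1, for the difference between lines with miR-708, and for the mimics in MCF10A stayed within 1.5 times under all alternatives run. A change of sign that touched a call occurred for POLR1A with miR-708 in hTERT RPE-1, at 0.32 with equal sums and 0.30 with equal sums without ribosomal RNA rows, where the median of all genes moves up as well. The replicate block changed 4 calls among the 8. In MCF10A these were TCOF1 with miR-28 and POLR1B with miR-708. The others were differences between lines, of TCOF1 with miR-28 (adjusted p = 0.0486) and POLR1E with miR-708 (adjusted p = 0.0114). The last 2 rest in part on mimic and siNT libraries of hTERT RPE-1, where those of the same number deviated together only weakly (r = 0.02 to 0.15). In those hTERT RPE-1 comparisons the block moved the calls over all genes from 6798 to 6997 with miR-28 and from 9024 to 9101 with miR-708. Over all genes, miR-708 against miR-28 had 228 calls in MCF10A, 643 with the block, 150 without a trend and 112 to 368 without 1 library, and 3084 in hTERT RPE-1, 4654 with equal sums and as few as 1512 without 1 library. MiR-28 against siNT in MCF10A had 3347, and as few as 1949 without 1 library; miR-708 had 4835, and as few as 3174. The causes of these changes were not tested. With 3 libraries per group, changes under about 0.3 on the log2 scale were seldom called among these genes.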
